A study of Mus musculus with 8 samples.

Results

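The semaphorin, plexin and neuropilin genes, which encode a family of guidance cues and their receptors, were described in whole fetal brains of mice whose dams had or had not been stressed. The genes were taken by symbol from the count tables, as the protein-coding genes named *Sema3* to *Sema7*, *Plxna* to *Plxnd*, *Nrp1* and *Nrp2*. They were 31 of the 54752 listed genes, with 20 semaphorins, 9 plexins and 2 neuropilins, and all 31 passed the filter on low counts. Every brain came from a wild type C57BL/6 mouse (C57BL/6Slac in the study's methods) at E15.5 and comprised forebrain, midbrain and hindbrain. The 4 control brains (2 females, F36 and F37, and 2 males, M30 and M31) came from a dam left in the home cage. The 4 stress brains (2 females, F34 and F35, and 2 males, M28 and M29) came from a dam exposed to chronic unexpected mild stress (CUMS), a changing series of mild stressors, until the day before collection. The 4 control brains were littermates and the 4 stress brains were littermates of 1 other litter, so litter and stress cannot be told apart, and the spread behind each p-value is that between littermates. Libraries held 25320109 to 29105710 counts, and the 12 neuronal markers summed to 8190 CPM (counts-per-million) or more in every brain. In whole-brain RNA, fewer cells of a type and less RNA per cell cannot be told apart.

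Semaphorins are cues that steer growing axons, migrating neurons and vessels. Class 3 semaphorins are secreted and mostly bind a neuropilin, which lends binding while a plexin A carries the signal, whereas classes 4 to 6 span the membrane, class 7 is anchored to it by a lipid, and these bind plexins directly. Plexins hold a GTPase-activating domain for small Rap and Ras proteins in their cytoplasmic part, and signalling through them usually makes the growth cone collapse or turn. In the fetal brain the system is known for laying out cortical, commissural and hindbrain tracts.

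Of the 31 genes, 5 passed the test for stress at an adjusted p under 0.05, 3 of them higher and 2 lower in the stress brains. *Sema5a*, *Plxnb1* and *Plxna2* were higher by 14.8%, 8.06% and 6.59%, and *Plxnc1* and *Nrp1* were lower, with changes of -7.28% and -8.54%. The 5 genes are 16.1% of the members, and 13.8% of all 17865 genes tested passed the same test, so by this test the share was near that of all genes. By direction, 6.49% of all genes were higher and 7.27% were lower. At an unadjusted p under 0.05 there were 9 members, against 26.9% of all genes. DESeq2 also called 3 members higher and 2 lower. It called fewer genes in all, 1659 of 17865 (748 higher and 911 lower), against 2458 in the main test.

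The sequences just before the transcription starts of *Sema5a*, *Plxnb1* and *Plxnc1* are shown because these are the 3 called members with the smallest p. Each window runs from 250 bases before to 50 bases after the RefSeq start on GRCm38.p6, written 5′ to 3′ on the gene's strand. Capitals mark the GC box GGGCGG or its reverse complement CCGCCC, with overlapping matches counted, a motif chosen after the sequences were seen.
*Sema5a*, chr15:32244563-32244862, plus strand: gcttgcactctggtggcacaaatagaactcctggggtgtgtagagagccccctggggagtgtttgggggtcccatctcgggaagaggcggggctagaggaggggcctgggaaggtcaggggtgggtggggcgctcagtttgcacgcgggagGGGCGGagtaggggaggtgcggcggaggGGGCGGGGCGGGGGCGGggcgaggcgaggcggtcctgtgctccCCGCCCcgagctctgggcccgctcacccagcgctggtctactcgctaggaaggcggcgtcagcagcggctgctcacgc
*Plxnb1*, chr9:109095186-109095485, plus strand: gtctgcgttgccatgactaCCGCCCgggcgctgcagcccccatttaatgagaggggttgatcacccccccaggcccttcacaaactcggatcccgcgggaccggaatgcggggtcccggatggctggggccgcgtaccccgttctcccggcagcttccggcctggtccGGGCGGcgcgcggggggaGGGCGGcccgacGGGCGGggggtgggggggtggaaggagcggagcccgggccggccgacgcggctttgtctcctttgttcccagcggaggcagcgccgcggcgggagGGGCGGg
*Plxnc1*, chr10:94944796-94945095, minus strand: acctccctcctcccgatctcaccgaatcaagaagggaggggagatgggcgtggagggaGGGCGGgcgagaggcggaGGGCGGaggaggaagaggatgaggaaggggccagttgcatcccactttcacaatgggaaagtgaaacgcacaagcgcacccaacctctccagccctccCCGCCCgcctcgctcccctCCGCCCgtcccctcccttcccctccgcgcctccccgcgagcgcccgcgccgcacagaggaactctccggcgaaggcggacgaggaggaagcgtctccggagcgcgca
The windows of *Sema5a* and *Plxnb1*, both higher in the stress brains, held 5 GC boxes each, and that of *Plxnc1*, lower in them, held 4. Of the other 2 called members, *Plxna2* had 2 and *Nrp1* had 1. Windows of uncalled members held from 0, as at *Sema5b*, to 5, as at *Nrp2*. In all, 37 windows of 26 members were described, and the other 5 members were left out. Of these 37 windows 73.0% held a GC box, against 35.7% of all 32851 windows. The members' shares are those of the described windows only. The members' windows were also richer in G and C, with a median of 63.7% against 52.7%, and held a median of 15 CpG pairs against 7. Motifs tied to cell-cycle genes were searched on both strands too. The CCAAT box was in 18.9% of the members' windows and 37.4% of all windows, and TTTGAA, the cell-cycle homology region, was in 10.8% and 17.9%. The E2F core, searched as TTCGCGC and TTGGCGC, was in 1 of 37 windows, at a start of *Plxnb2*, and in 3.89% of all windows. The windows of the 5 called members held none of these 3 motifs. A match of letters is a description and not a site of binding.

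Levels in a brain are given as CPM on TMM-scaled totals, and to set genes side by side CPM was divided by exon length in kilobases, which gives RPKM. Over the 8 brains the mean level ran from 35.9 RPKM for *Sema4g* to 0.165 RPKM for *Plxnb3*. The top 4 were *Sema4g*, a class 4 semaphorin that acts with *Sema4c* through plexin B2 in the cerebellum, *Plxna3* at 35.4 RPKM, *Plxna1* at 33.1 RPKM and *Plxnb2* at 32.5 RPKM. The ranges over brains of neighbours among these 4 overlapped, so their order is not resolved. The range of *Plxnb2* (30.5 to 34.1 RPKM) lay wholly above that of the next gene, *Sema6c* (23.9 to 27.9 RPKM). *Plxna2* and *Plxnb1* followed, both with a mean of 23.0 RPKM, and overlapped. About 10.7% of the exon bases of *Plxna1* are shared with a gene on the opposite strand, *Gm26811*, and no strand option is given for the counting. In the other 30 members the overlap was under 10%.

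Among the secreted class 3 semaphorins, *Sema3f*, the ligand of neuropilin-2, had the highest level at 12.9 RPKM. *Sema3c* followed at 7.08 RPKM and *Sema3a*, the prototype collapsin that binds neuropilin-1, at 3.28 RPKM. *Sema3e*, which binds plexin D1 without a neuropilin, was at 1.14 RPKM, and *Sema3g*, *Sema3b* and *Sema3d* were at 0.836, 0.397 and 0.332 RPKM. The 4 lowest genes of the whole family were these last 3 and *Plxnb3*, each between 19 and 122 counts in a library. *Nrp2* was at 14.1 RPKM and *Nrp1* at 7.13 RPKM, and no brain had more *Nrp1* than *Nrp2*. Among the plexin C and D receptors, *Plxnc1*, the receptor of *Sema7a*, was at 14.8 RPKM and *Plxnd1* at 8.34 RPKM. *Sema7a* itself was at 17.4 RPKM.

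**Figure D1:**
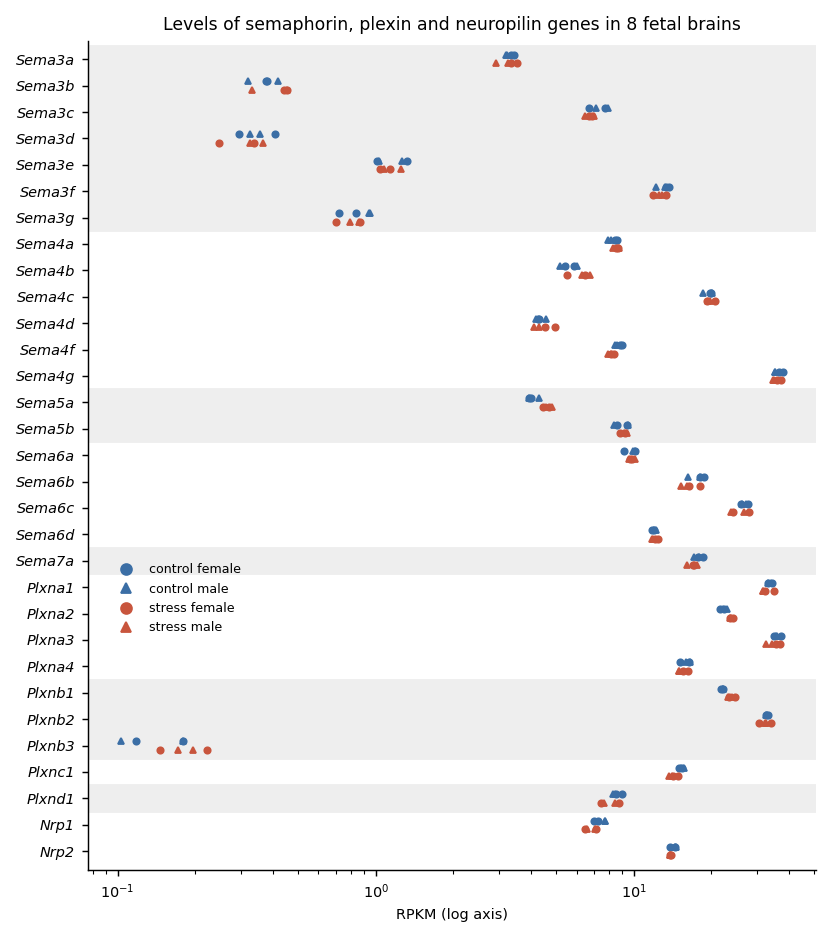
Level of each of the 31 genes in RPKM on a log axis, 1 point per brain, with control and stress brains in different colours and shaded bands separating the classes. The points of a gene lie close together next to the distance between genes, from *Sema4g* near 35.9 RPKM down to *Plxnb3* near 0.165 RPKM.

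The stress comparison is given by role, ligands first, with levels in CPM, which serve to compare brains but not genes. *Sema5a*, a membrane semaphorin with thrombospondin repeats that binds class A plexins, had the smallest p of the family. Its level was 74.6, 73.6, 80.0 and 73.4 CPM in control F36, F37, M30 and M31. In stress F34, F35, M28 and M29 it was 83.4, 88.0, 85.2 and 89.7 CPM. Every stress brain was above every control brain, and the closest pair were control M30 and stress F34. The log2 fold change (Log2FC, stress vs. control) was 0.20 (SE 0.03, 95% interval 0.13 to 0.27, edgeR adjusted p = 0.000248). It stayed between 0.18 and 0.23 when any 1 brain was left out, and the call held in 8 of 8 such fits. *Sema5b*, the other class 5 gene, had a Log2FC of 0.03 (95% interval -0.05 to 0.12).

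Of the class 3 semaphorins, 0 of 7 passed the edgeR test (1 at an unadjusted p under 0.05, and 0 by DESeq2), and 6 of the 7 had a negative Log2FC, of which those of *Sema3a*, *Sema3d* and *Sema3e* were positive in at least 1 fit that left out a brain. *Sema3c*, a secreted cue that can attract cortical axons, came nearest. It was at 47.9, 55.5, 51.2 and 56.5 CPM in control F36, F37, M30 and M31, and at 49.4, 47.9, 50.02 and 46.1 CPM in stress F34, F35, M28 and M29. Control F36 lay among the stress brains, so the groups overlapped. Its Log2FC was -0.13 (SE 0.05, edgeR adjusted p = 0.0631), and without control F36 it was -0.18 (edgeR adjusted p = 0.00925). With no filter on low counts the adjusted p of *Sema3c* was 0.0185. The other 6 had Log2FC values from -0.11 for *Sema3d* to 0.16 for *Sema3b*. The intervals were widest for the scarce ones, from -0.39 to 0.16 for *Sema3d* and from -0.15 to 0.48 for *Sema3b*. For *Sema3a* (-0.02) and *Sema3f* (-0.05) they were narrower, from -0.10 to 0.07 and from -0.13 to 0.03.

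Class 4 held 0 of 6 genes called by edgeR or by DESeq2, and 2 with an unadjusted edgeR p under 0.05 that pointed in opposite directions. *Sema4b* was at 33.2, 30.5, 34.03 and 29.2 CPM in the controls and at 36.6, 31.1, 35.4 and 38.2 CPM in the stress brains, in the order used above. Stress F35 lay among the controls and the other 3 stress brains were above all of them. Its Log2FC was 0.16 (SE 0.05, edgeR adjusted p = 0.0553). The adjusted p of *Sema4b* was 0.0288 without control F36, 0.0460 without control M30, 0.00844 without stress F35 and 0.0201 with no filter. *Sema4f* was at 46.9, 47.7, 44.8 and 45.3 CPM in the controls and at 43.1, 44.2, 42.1 and 43.3 CPM in the stress brains. All stress brains were below all controls, although the Log2FC of -0.10 (SE 0.04) missed the threshold (edgeR adjusted p = 0.0829). *Sema4a*, *Sema4c*, *Sema4d* and *Sema4g* had Log2FC values of 0.05, 0.01, 0.04 and -0.03.

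Class 6 semaphorins signal through class A plexins and can also act as receptors themselves. By edgeR 0 of 4 passed the test, 1 had an unadjusted p under 0.05, and DESeq2 called 0. *Sema6b* was at 74.4, 71.3, 64.4 and 71.8 CPM in the controls and at 71.8, 64.7, 64.1 and 60.5 CPM in the stress brains, so control M30 and stress F34 crossed over to the side of the other group. The Log2FC of *Sema6b* was -0.11 (SE 0.04, edgeR adjusted p = 0.0611), and its adjusted p was 0.0335 without control M30, 0.0211 without stress F34 and 0.0256 with no filter. *Sema6a*, *Sema6c* and *Sema6d* had Log2FC values of -0.0026, -0.06 and 0.0062. *Sema7a* had a Log2FC of -0.07 (95% interval -0.15 to 0.0023).

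**Figure D2:**
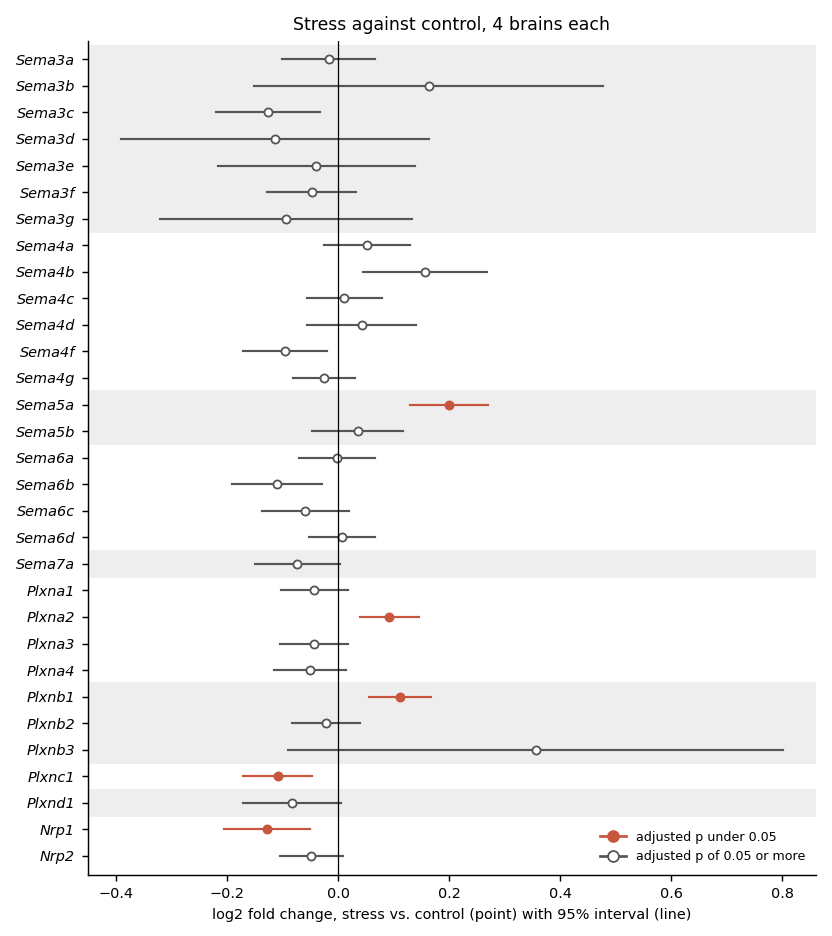
Log2 fold change of each of the 31 genes (point) with its 95% interval (line), stress vs. control, 4 brains a group, with filled points at an adjusted p under 0.05 and shaded bands separating the classes. The 5 filled points are *Sema5a*, *Plxna2* and *Plxnb1* to the right of 0 and *Plxnc1* and *Nrp1* to the left, and the widest lines belong to *Plxnb3*, *Sema3b*, *Sema3d* and *Sema3g*.

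Among the receptors, 2 plexins rose, 1 plexin fell and 1 neuropilin fell. *Plxnb1*, the receptor of *Sema4d*, was at 212, 209.6, 212 and 213 CPM in the controls. In the stress brains it was at 237, 225, 223 and 230.0 CPM. The controls lay within a narrow band and every stress brain was above it. The Log2FC of *Plxnb1* was 0.11 (SE 0.03, 95% interval 0.06 to 0.17, edgeR adjusted p = 0.00647), and the call held in 8 of 8 fits that left out 1 brain. *Plxna2*, a receptor of class 5 and class 6 semaphorins and partner of neuropilins, was at 372, 384, 382 and 393 CPM in the controls. It was at 415, 405, 407 and 405 CPM in the stress brains, again with no overlap. The Log2FC of *Plxna2* was 0.09 (SE 0.03, 95% interval 0.04 to 0.15, edgeR adjusted p = 0.0178). The call of *Plxna2* was lost without control F36 (adjusted p 0.0854), control M30 (0.0739) or stress F34 (0.0616), and with no sex covariate (0.0543).

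*Plxnc1* was at 125, 128, 127 and 131 CPM in the controls and at 119, 124, 115 and 117 CPM in the stress brains. All stress brains were below all controls, with control F36 and stress F35 about 1 CPM apart. The Log2FC of *Plxnc1* was -0.11 (SE 0.03, 95% interval -0.17 to -0.05, edgeR adjusted p = 0.0152). Its adjusted p was 0.0672 without control M31, 0.0739 without stress M28 and 0.0503 without stress M29. *Nrp1*, which binds class 3 semaphorins and also the vessel growth factor VEGF-A, was at 68.8, 71.4, 75.9 and 75.6 CPM in the controls and at 70.1, 63.2, 68.9 and 64.5 CPM in the stress brains. The groups overlapped, since control F36 was below stress F34 and M28. The Log2FC of *Nrp1* was -0.13 (SE 0.04, 95% interval -0.21 to -0.05, edgeR adjusted p = 0.0215). The call of *Nrp1* was the least stable of the 5 and held in 3 of 8 fits, with an adjusted p of 0.0598 without control F37, 0.0747 without control M30, 0.0597 without control M31, 0.0626 without stress F35 and 0.127 without stress M29.

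The remaining receptors did not pass the test. *Plxna1*, *Plxna3* and *Plxna4* had Log2FC values of -0.04, -0.04 and -0.05, *Plxnb2* -0.02, *Plxnd1* -0.08 and *Nrp2* -0.05. *Plxnb3*, with 19 to 40 counts a library, had a Log2FC of 0.36 with a 95% interval from -0.09 to 0.80. Over the 31 genes, 11 Log2FC values were positive and 20 negative, with a median of -0.04 against 0.0015 over all genes tested, and 9 of the uncalled values changed sign in a fit that left out 1 brain. The median size was 0.06 against 0.08 over all genes. The groups did not overlap for 5 members, which were *Sema5a*, *Plxnb1* and *Plxna2* above and *Plxnc1* and *Sema4f* below the controls, and 16.4% of all genes had groups that did not overlap. For 17 of the 31 genes the whole 95% interval lay within 0.15 of 0 on the log2 scale.

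**Figure D3:**
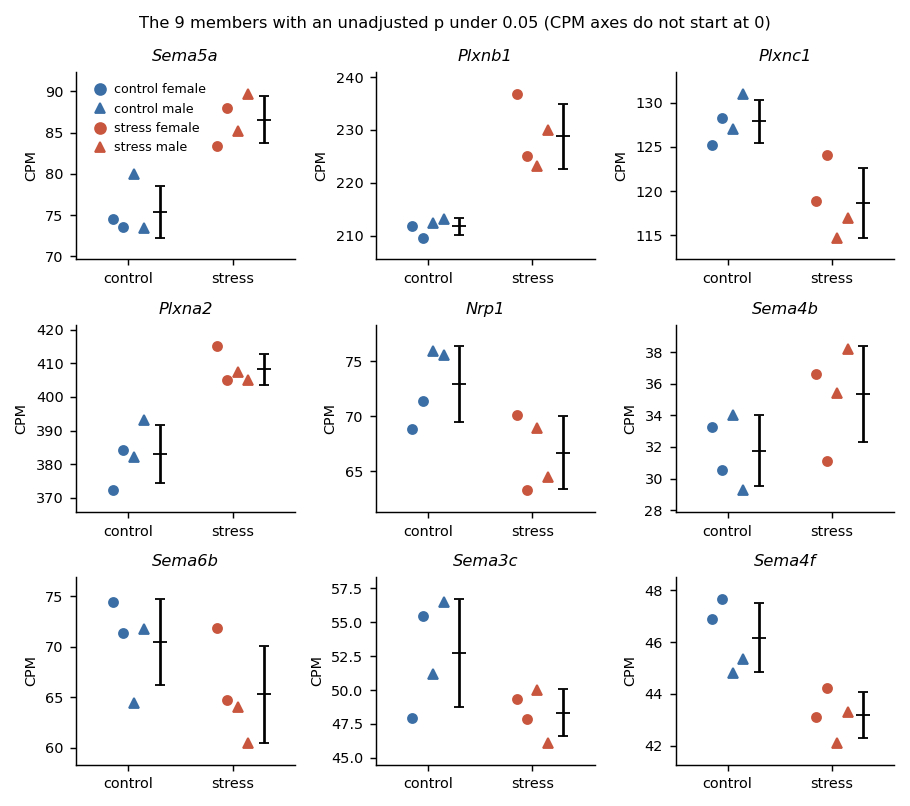
CPM of the 9 genes with an unadjusted p under 0.05, 1 point per brain, control and stress side by side, with the group mean and SD; axes do not start at 0. The groups are apart for *Sema5a*, *Plxnb1*, *Plxna2*, *Plxnc1* and *Sema4f* and overlap for *Nrp1*, *Sema4b*, *Sema6b* and *Sema3c*.

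Some of the ligands and receptors known to pair were then set side by side, as a description. *Plxnc1* and its ligand *Sema7a* had Log2FC values of -0.11 and -0.07, and the first passed the test. *Plxnb1* and *Sema4d* had values of 0.11 and 0.04, *Sema5a* and *Plxna2* 0.20 and 0.09, and *Sema6a*, which also binds plexin A2, -0.0026. *Nrp1* and *Sema3a* had values of -0.13 and -0.02, and *Nrp2* and *Sema3f* -0.05 and -0.05. *Plxnd1* and *Sema3e* had values of -0.08 and -0.04. In the plexin B2 pairs, the receptor was at -0.02 with *Sema4c* at 0.01 and *Sema4g* at -0.03. Among these pairs, both partners passed the test for *Sema5a* and *Plxna2* only. The other class A plexins, *Plxna1*, *Plxna3* and *Plxna4*, had values of -0.04, -0.04 and -0.05 and did not pass. *Sema5a* binds class A plexins but was set beside *Plxna2* alone, the only one called, so this pair is a description and not a test.

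The make-up of the family was expressed as each class's share of the summed RPKM in a brain. Class 4 took 40.1% ± 0.5 (SD, n = 4) of the semaphorin sum in controls and 40.8% ± 0.5 in stress brains. Class 6 took 32.1% ± 0.6 and 31.5% ± 0.5, class 3 12.9% ± 0.4 and 12.5% ± 0.1, class 7 8.63% ± 0.31 and 8.34% ± 0.27, and class 5 6.29% ± 0.31 and 6.81% ± 0.24. For each of these classes the ranges of the groups overlapped. By counts not divided by length, class 6 was the largest in controls, at 35.4% against 33.8% for class 4. Plexin A took 57.7% ± 0.3 of the plexin sum in controls and 57.6% ± 0.6 in stress brains, and plexin B 29.5% ± 0.3 and 30.4% ± 0.7. The plexin C share, which is *Plxnc1* alone, was 8.21% ± 0.13 and 7.68% ± 0.33, with all stress brains below all controls. The groups nearly touched, at 8.102% in control F37 and 8.097% in stress F35. Within plexin A, *Plxna2* took 20.3% to 21.2% in the controls and 21.6% to 22.9% in the stress brains, without overlap. *Nrp1* took 34.2% ± 0.7 of the neuropilin sum in controls and 32.9% ± 1.0 in stress brains, with overlap. The summed RPKM of the whole family was 415 ± 3 in controls and 409 ± 12 in stress brains. Plexins summed to 0.866 to 0.922 times the semaphorins in the controls and to 0.899 to 0.920 times in the stress brains.

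**Figure D4:**
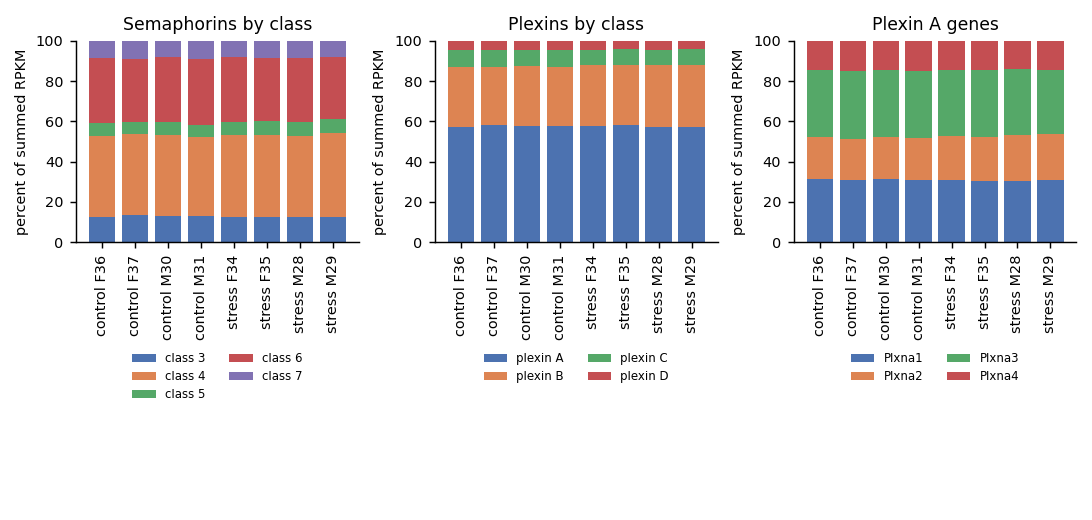
Stacked bars of the percent of summed RPKM in each brain, for semaphorin classes, plexin classes and the 4 plexin A genes. The bars look alike across the 8 brains, and the *Plxna2* part of plexin A runs from 20.3% to 21.2% in controls and from 21.6% to 22.9% in stress brains.

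Both groups held 2 females and 2 males, so the stress effect was also compared between the sexes. For the sex by stress interaction 0 of 31 members passed the edgeR test, 1 of all 17865 genes did, and DESeq2 called 0 members. At an unadjusted p under 0.05 there were 2 members, *Sema4d* and *Plxna4*, against 6.31% of all genes. *Sema4d* had a Log2FC of 0.14 in females (SE 0.06) and -0.06 in males (SE 0.06), and the male minus female difference was -0.20 (edgeR adjusted p = 0.743). *Plxna4* had 0.01 in females and -0.11 in males, a difference of -0.12 (edgeR adjusted p = 0.765). DESeq2 gave neither an unadjusted p under 0.05. In *Plxna1* and *Plxna3* the female values were also near 0, at -0.0008 and 0.0078, and the male values were -0.09 and -0.09, with intervals of the difference from -0.20 to 0.03 and from -0.21 to 0.01. Of the 31 genes, 21 had the same sign in both sexes and 10 had opposite signs. The 5 called members had the same sign in both, with Log2FC values in females and males of 0.21 and 0.19 for *Sema5a*, 0.13 and 0.09 for *Plxnb1*, 0.12 and 0.07 for *Plxna2*, -0.06 and -0.16 for *Plxnc1* and -0.07 and -0.18 for *Nrp1*.

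Between males and females 0 members passed the edgeR or the DESeq2 test, and edgeR called 16 of all genes. At an unadjusted p under 0.05 edgeR found 4 members, all lower in males, against 5.91% of all genes. DESeq2 also found 4 members, against 513 of all 17865 genes. The male vs. female Log2FC was -0.12 for *Sema6b*, -0.11 for *Sema3a*, -0.07 for *Sema4g* and -0.06 for the X-linked *Plxna3*.

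**Figure D5:**
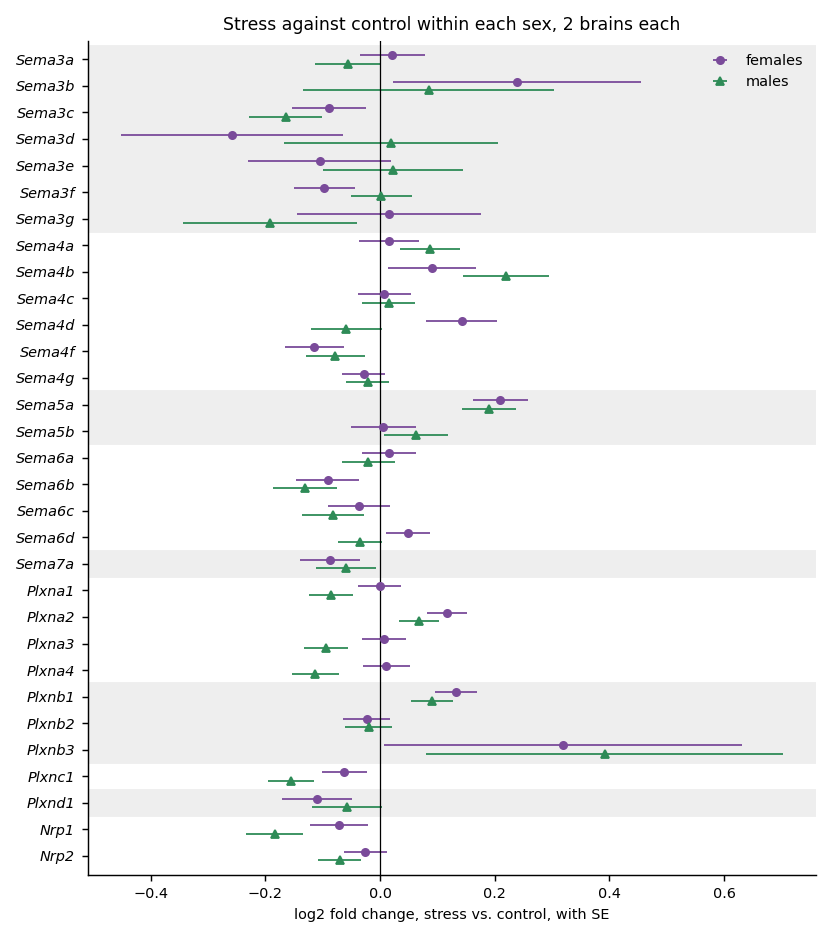
Log2 fold change, stress vs. control, of each of the 31 genes in females and in males, 2 brains a group, with SE from the model over all 8 brains. The 5 called genes lie on the same side of 0 in both sexes, and the values of *Sema4d* and *Plxna4* lie apart, at 0.14 and -0.06 and at 0.01 and -0.11.

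The other genes of the pathway were taken from lists of membrane partners and of signalling proteins inside the cell. Both lists were written with earlier results of these data known, so their shares called are descriptions. Of 17 membrane partners 16 were tested, and 2 were higher and 6 lower in the stress brains, against 13.8% called among all genes, with a median Log2FC of -0.04. The falls included *Vegfa*, which encodes the other ligand of neuropilin-1, from 75.0 ± 3.3 to 59.2 ± 3.1 CPM (SD, n = 4 a group, Log2FC -0.34, edgeR adjusted p = 2.69e-06). *Kdr*, the VEGF receptor that forms complexes with neuropilin-1, fell from 41.3 ± 3.0 to 33.8 ± 0.9 CPM (Log2FC -0.29). *Met*, a receptor kinase that can pair with class B plexins, fell with a Log2FC of -0.44, and *Sdc3*, a neuronal heparan sulphate proteoglycan, with one of -0.11. *Vegfa*, *Kdr*, *Met* and *Sdc3* kept their calls in 8 of 8 fits that left out 1 brain. The higher pair were *Cntn2*, an axonal adhesion protein (Log2FC 0.11), and *Ptk7*, a plexin A1 partner (Log2FC 0.12), which was called in 2 of 8 such fits.

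Of 38 signalling genes, 2 rose and 4 fell, 15.8% of the list against 13.8% of all genes, with a median Log2FC of -0.02. The rises were *Rnd3* and *Rnd2*, small GTP-binding proteins that bind plexins and act in the migration of cortical neurons, with Log2FC values of 0.20 and 0.16. *Rnd1*, the member of the same family known to open plexin A1 and plexin B1 for signalling, fell from 12.5 ± 0.6 to 10.5 ± 0.5 CPM (SD, n = 4 a group, Log2FC -0.25, edgeR adjusted p = 0.0109). *Mical2*, of the oxidoreductases that take actin apart downstream of plexins, fell with a Log2FC of -0.39, *Tiam1*, a Rac exchange factor, with one of -0.18, and *Farp1*, a FERM-domain exchange factor, with one of -0.15. About 11.4% of the exon bases of *Rnd2* overlap another gene.

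Marker genes of the cell types that the brain holds moved with stress too. For comparison, 6.49% of all genes were higher and 7.27% lower by edgeR. By DESeq2, 748 of all 17865 genes were higher and 911 lower. Of the dividing-cell markers 11 of 12 were higher, with a summed level of 747 to 799 CPM in controls and 833 to 950 CPM in stress brains, among them *Top2a* and *Mki67* (Log2FC 0.24 and 0.21), and DESeq2 called 11. Of the radial glia markers 5 of 10 were higher, such as *Pax6* and *Sox2*, and the sums were 1640 to 1748 and 1675 to 1813 CPM (3 higher by DESeq2). The radial glia list was split in direction, since 4 markers had a negative Log2FC, though 0 were called lower. Of the neuronal markers 6 of 12 were lower, such as *Gap43* and *Rbfox3*, with sums of 8434 to 8679 and 8190 to 8587 CPM (4 lower by DESeq2). A positive Log2FC was seen in 2 neuronal markers, and 0 were called higher. Of the endothelial markers 5 of 10 were lower by edgeR but only 1, *Flt1*, by DESeq2, with sums of 160.2 to 171 and 144 to 155 CPM. The Log2FC was positive in 2 endothelial markers, and 0 were called higher. Of the oligodendrocyte precursor markers 3 of 6 were lower, such as *Pdgfra* and *Olig1*, with sums of 128 to 142 and 113 to 119 CPM (3 lower by DESeq2). Of 9 mural and meningeal markers tested 3 were higher by edgeR and 0 by DESeq2 (148 to 157 and 152 to 195 CPM), and of 6 choroid plexus markers 3 were higher by edgeR and 1 by DESeq2 (36.98 to 47.4 and 46.7 to 76.5 CPM). The spread was wide in both lists, with *Col1a1* at 1.67 ± 1.10 CPM in controls and 5.16 ± 4.53 CPM in stress brains (SD, n = 4 a group) and *Ttr* at 2.65 ± 2.93 and 10.6 ± 13.2 CPM. Blood markers had 1 of 6 higher and 1 lower by either tool (362 to 409 and 366 to 380.3 CPM). By edgeR, 0 of 8 microglial markers passed the test, 0 had an unadjusted p under 0.05, and DESeq2 called 0 (37.5 to 41.3 and 35.3 to 40.7 CPM). *Nrp1* and *Plxnd1* are known from endothelial cells as well as neurons. The part of cell composition in the changes of *Sema5a*, *Plxnb1*, *Plxna2*, *Plxnc1*, *Nrp1* and the pathway genes was not tested.

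Several members are neighbours in the genome (mm10). *Sema3d*, *Sema3a*, *Sema3e* and *Sema3c* lie in this order on chromosome 5, with gaps of 0.536, 0.423 and 3.32 Mb, and had Log2FC values of -0.11, -0.02, -0.04 and -0.13, none of which passed the test. *Sema3b* and *Sema3f* lie 72271 bases apart on chromosome 9, with values of 0.16 and -0.05, and *Plxnb1* lies 1.38 Mb beyond *Sema3f*. *Plxnb3* and *Plxna3* lie 0.557 Mb apart on the X chromosome, the one scarcest and the other among the most abundant of the family. Of the called genes, *Sema5a* (ENSMUSG00000022231.10) spans chr15:32244810-32696341, *Plxnb1* (ENSMUSG00000053646.13) chr9:109095389-109119917 and *Plxna2* (ENSMUSG00000026640.12) chr1:194618218-194816869, all on the plus strand. *Plxnc1* (ENSMUSG00000074785.5) spans chr10:94790866-94944835 on the minus strand and *Nrp1* (ENSMUSG00000025810.9) chr8:128358604-128503363 on the plus strand. The counts are those of all exons of a gene, so isoforms were not told apart.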

How the data were processed

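RNA of 8 brains was sequenced, 1 library per brain. The authors trimmed paired reads with Trim Galore, aligned them to mm10 with TopHat2 2.1.1, counted read pairs on GENCODE exons with featureCounts 1.6.3 and deposited the raw counts per gene, without normalization or filter. No option for strand or overlapping genes is given in the sources used here. Symbols came from GENCODE vM21 on the same build (54723 of 54752 identifiers matched). The tables held 25320109 to 29105710 counts.

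A low-count filter (filterByExpr by group, minimum count 10) and TMM scaling came first, followed by edgeR's quasi-likelihood test on sex and condition (edgeR 4.0.16, limma 3.58.1, R 4.3.3), with Benjamini-Hochberg adjustment over 17865 genes. The study's batch term could not be used, because no batch is given for these libraries. CPM used TMM-scaled totals, RPKM also the exon length in the files. SE was the Log2FC over the square root of F. Chi-square per gene between littermates was 1.97 to 6.28 (about 1 for repeats of a library), so each brain was 1 replicate. Tests were tested on simulated data. Alternatives were DESeq2 1.42.0, other normalizations, no filter, no sex covariate and each brain left out.

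Members and lists were chosen with earlier results of these data known. Values in all brains are given for members with an unadjusted p under 0.05, and up to 4 called genes per direction of each pathway list, by p, and up to 2 markers per cell type are named.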

Additional observations from a re-analysis of the deposited data

Results flagged for a closer look

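*Nrp2* stood out in the control group because control F36, at 163 CPM, was far from the other 3 controls, which lay at 172 to 173 CPM. *Sema3b* stood out in the stress group because stress M29, at 1.59 CPM, was far from the other 3 stress brains at up to 2.17 CPM, and the 8 libraries held 42 to 62 counts of the gene. A lone brain was looked for in 62 pairs of member and group and found in 2, and chance marks about 1 in 20 such groups. *Sema6d* had a stress effect of opposite sign in the sexes, with no overlap of the groups in either sex, at 0.05 in females and -0.04 in males on the log2 scale. Each group within a sex held only 2 brains, and the share of all genes with this pattern was not counted. The male minus female difference was -0.0836, and the test of the interaction did not pass (edgeR adjusted p = 0.841).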

How the results depend on the processing

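For the 31 members, 368 values of Log2FC by setting kept their direction and side of the threshold, 12 lost the call, 9 gained it and 14 changed sign. The 14 were in 9 uncalled members, with 1 brain left out, where the Log2FC ran from -0.0543 to 0.0076 (*Plxnb2*), -0.0429 to 0.0207 (*Sema3a*), -0.18 to 0.0077 (*Sema3d*), -0.113 to 0.0550 (*Sema3e*), -0.0120 to 0.0317 (*Sema4c*), -0.0061 to 0.0879 (*Sema4d*), -0.0072 to 0.0651 (*Sema5b*), -0.0339 to 0.0209 (*Sema6a*) and -0.0116 to 0.0203 (*Sema6d*). Without the filter on low counts 4 members were higher and 4 lower (3 and 2 with it). With 1 brain left out 2 to 4 members were higher and 0 to 3 lower, and the count of lower members was 0 without control M31 or stress M29, and 1 without control F37, stress F35 or stress M28. Of the membrane partners, 1 was higher (2 in the report) with DESeq2, with no filter and with no sex covariate, and 0 to 2 with 1 brain left out (0 without stress F34, and 1 without control F36, F37 or M31 or stress M28 or M29). Over all settings the lower partners ranged from 4 to 6, and signalling genes from 2 to 3 higher and from 4 to 6 lower (4 to 5 with 1 brain left out, 6 with no filter). Over all genes 1160 were higher and 1298 lower, 748 and 911 with DESeq2, and 736 to 1057 and 854 to 1308 with 1 brain left out, both lowest without stress M29. No member was called between the sexes in any of these fits (range 0 to 0). The causes were not tested. Shares of counts not divided by length gave class 5 11.1% of the semaphorins in controls, class 4 33.8% and class 6 35.4%. The order of classes 4 and 6 thus depends on the division by length. No paired analysis was possible because the groups share no replicate numbers. Depth limits *Plxnb3*, *Sema3b*, *Sema3d* and *Sema3g*, with 19 to 122 counts.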
